A study of Mus musculus with 12 samples.

Results

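The genes described here are the 37 aminoacyl-tRNA synthetase genes in the deposited expression table of primary mouse hepatocytes, out of 36144 genes listed. They were chosen by gene symbol alone: 20 encode cytosolic synthetases and 17, whose symbols end in 2, encode mitochondrial ones. All 37 entered the tests, which covered the 11544 genes with at least 1 TPM (a length-corrected share of a library's transcripts, on a common total) in at least 3 of the 12 libraries. Mars2, the mitochondrial methionine gene, came in at that limit, with 0.885, 1.01 and 0.945 TPM in FDMn, 0.942, 1.18 and 1.27 TPM in FDI, 0.922, 0.912 and 0.848 TPM in FD, and 0.796, 0.665 and 0.717 TPM in Mock. The hepatocytes came from a WT C57/Bl6J mouse by collagenase perfusion, and all groups spent 16 h without serum. FDMn cells received 6 µM MnCl2 during those 16 h and 10 µM forskolin plus 1 µM dexamethasone for the last 5 h. FDI cells received the same forskolin and dexamethasone, with 100 nM insulin given 1 h ahead of them. FD cells received forskolin and dexamethasone without either addition, and Mock cells received none of these agents. Each group has 3 libraries. Neither manganese nor insulin was given on its own, so their separate action was not measured. The labels speak of a single mouse and do not say whether replicates were separate preparations, so the p-values measure the spread between these libraries, which may be technical.

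An aminoacyl-tRNA synthetase joins an amino acid to its matching transfer RNA, and the charged tRNA then carries that amino acid to the ribosome. The cytosolic enzymes serve the translation of nuclear-encoded messages. A separate set, also encoded in the nucleus and imported, serves the mitochondrial ribosome. Gars (glycine) and Kars (lysine) encode the enzymes of both compartments, and Qars (glutamine) has no mitochondrial counterpart, because mitochondria make their glutaminyl-tRNA by another route. Several cytosolic synthetases sit in a multi-enzyme complex held together by the scaffold proteins encoded by Aimp1, Aimp2 and Eef1e1. Uncharged tRNA activates the kinase GCN2, which phosphorylates the initiation factor eIF2 and raises translation of the transcription factor ATF4. Many cytosolic synthetase genes are known ATF4 targets, together with genes of amino acid synthesis and transport. Forskolin raises cAMP and dexamethasone is a glucocorticoid. Together they mimic hormones of fasting, and insulin opposes many of their actions in liver.

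As a class the cytosolic genes had the higher levels. Nars (asparagine) was the highest cytosolic gene and Farsa, the alpha subunit of the phenylalanine enzyme, the lowest. Nars had 421, 435 and 429.7 TPM in FDMn, 462, 501 and 468 TPM in FDI, 299, 323 and 288 TPM in FD, and 419.5, 427 and 394 TPM in Mock. Its FD libraries lay below all 9 others. Farsa had 21.9, 22.4 and 19.5 TPM in FDMn, 26.9, 26.3 and 25.1 TPM in FDI, 23.0, 21.4 and 21.9 TPM in FD, and 27.9, 23.8 and 21.4 TPM in Mock. Its FDI libraries lay above those of FDMn and FD, and Mock overlapped all 3 treated groups. Lars2, the mitochondrial leucine gene, averaged 302 TPM over the 12 libraries, and the other 16 mitochondrial genes averaged 0.924 TPM (Mars2) to 36.6 TPM (Fars2, phenylalanine). Geometric means were taken on TPM + 1, with 1 then subtracted, so they lie above a plain geometric mean where genes are low. The geometric mean over the 20 cytosolic genes was 77.4 ± 0.769 TPM in FDMn, 91.6 ± 1.35 TPM in FDI, 69.0 ± 1.67 TPM in FD and 91.5 ± 1.13 TPM in Mock (SD, n = 3 each). The 3 FD libraries were therefore the lowest of the 12 on this measure, the FDMn libraries came next, and FDI and Mock overlapped. The geometric mean over the 17 mitochondrial genes was 11.2 ± 0.223 TPM in FDMn, 11.98 ± 0.137 TPM in FDI, 11.3 ± 0.734 TPM in FD and 13.2 ± 0.622 TPM in Mock (SD, n = 3 each). Here FDMn, FDI and FD lay within 1 TPM of each other and Mock was the highest.

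**Figure D1:**
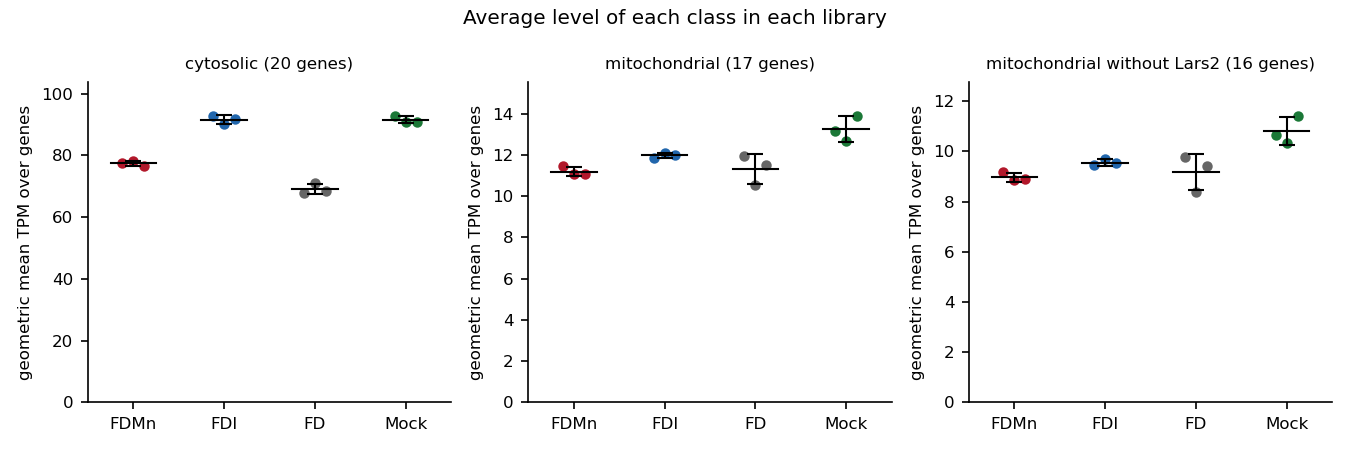
Geometric mean TPM of the 20 cytosolic genes and the 17 mitochondrial genes in each library (points), with the group mean and SD (lines); the vertical axes start at 0. The cytosolic mean is lowest in FD (69.0 TPM) and similar in FDI (91.6 TPM) and Mock (91.5 TPM), and the mitochondrial mean is highest in Mock (13.2 TPM).

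The promoters of 5 cytosolic genes are printed because they hold the 8-letter core TGATGNAA of the composite site known to bind ATF4 with C/EBP partners. No other synthetase gene with a matched window held it. They are RefSeq windows of build GRCm38.p6, from 250 bases before to 50 after the annotated start, written on the same strand as the gene. Capitals mark every match on either strand, and where the match is on the opposite strand the capitals show its reverse complement. Windows were matched for 13 of the 20 cytosolic genes, with Mars matched by its gene ID, and for 14 of the 17 mitochondrial genes. Cars, Hars, Lars, Nars, Rars, Vars, Wars, Hars2 and Pars2 were among those with no matched entry.
Aars, chr8:111033592-111033891, plus strand: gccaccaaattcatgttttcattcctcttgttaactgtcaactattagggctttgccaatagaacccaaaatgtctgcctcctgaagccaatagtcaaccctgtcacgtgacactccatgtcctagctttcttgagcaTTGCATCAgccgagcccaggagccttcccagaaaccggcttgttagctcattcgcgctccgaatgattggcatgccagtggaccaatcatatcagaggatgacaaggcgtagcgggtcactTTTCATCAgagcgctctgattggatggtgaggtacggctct
Gars, chr6:55037751-55038050, plus strand: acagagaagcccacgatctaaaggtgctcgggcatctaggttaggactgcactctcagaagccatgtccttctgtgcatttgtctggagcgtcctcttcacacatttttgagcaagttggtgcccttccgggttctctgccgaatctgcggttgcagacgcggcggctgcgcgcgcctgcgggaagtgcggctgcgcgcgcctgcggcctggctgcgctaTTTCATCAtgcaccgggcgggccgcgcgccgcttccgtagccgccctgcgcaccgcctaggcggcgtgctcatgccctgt
Iars, chr13:49681880-49682179, plus strand: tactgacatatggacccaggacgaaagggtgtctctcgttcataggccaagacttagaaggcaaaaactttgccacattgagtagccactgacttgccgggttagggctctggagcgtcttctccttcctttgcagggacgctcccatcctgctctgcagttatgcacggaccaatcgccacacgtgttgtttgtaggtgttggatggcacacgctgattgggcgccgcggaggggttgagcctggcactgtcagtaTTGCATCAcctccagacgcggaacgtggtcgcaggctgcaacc
Tars, chr15:11399609-11399908, minus strand: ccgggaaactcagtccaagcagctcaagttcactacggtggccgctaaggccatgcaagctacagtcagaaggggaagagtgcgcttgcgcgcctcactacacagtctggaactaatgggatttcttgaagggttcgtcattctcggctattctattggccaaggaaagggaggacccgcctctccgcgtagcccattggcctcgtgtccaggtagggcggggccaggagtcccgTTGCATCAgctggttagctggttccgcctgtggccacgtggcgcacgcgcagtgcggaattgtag
Yars, chr4:129189653-129189952, plus strand: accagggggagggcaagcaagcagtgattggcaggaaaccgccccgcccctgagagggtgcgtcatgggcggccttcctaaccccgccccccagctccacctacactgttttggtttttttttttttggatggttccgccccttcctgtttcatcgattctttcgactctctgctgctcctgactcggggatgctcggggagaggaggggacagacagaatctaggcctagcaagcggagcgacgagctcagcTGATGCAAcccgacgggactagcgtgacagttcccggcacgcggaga
The Yars match lies on the same strand as the gene and the others on the opposite one. Counted to the first base as printed, the Aars matches begin 112 bases before and 9 bases after the start, the Gars match 30 bases before, the Tars match 15 bases before, the Iars match 7 bases after and the Yars match 3 bases after. The core stood in 5 of 13 cytosolic genes (38.5%) and in 0 of 14 mitochondrial genes, against 4.51% of all 27018 genes with a window, counted in any of a gene's windows. In the list of Atf4 and known ATF4 targets described further below it stood in 8 of 23 genes (34.8%). The stricter form TGATGCAA stood in 4 of the 13 cytosolic genes, 0 of the 14 mitochondrial genes and 1.03% of all genes. TGACGTCA, the full cAMP response element, stood in 0 of 13 cytosolic and 0 of 14 mitochondrial genes and in 2.03% of all genes. A match is a description of letters in this window, not a site or a cause, and nothing follows from a window without one.

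On the first 2 principal components (45.3% and 12.4% of the variance) the Mock libraries stood apart on the first. On the second, FD replicate 3 (7.98) lay apart from FD replicates 1 and 2 (22.3 and 29.0). The counts over each class that use FD are therefore also given without this library and with it alone, while counts over gene lists and pairs rest on all 3 FD libraries. Summed hepatocyte markers were 34900 to 35590 TPM in FDMn, 29900 to 30520 TPM in FDI, 30550 to 40330 TPM in FD and 30700 to 31720 TPM in Mock, with 9 of 10 markers found. Alb made up most of this sum. Summed markers of Kupffer cells, endothelial cells, stellate cells and lymphocytes did not exceed 28.7 TPM in any library. Summed cholangiocyte markers were 1412 to 1606 TPM in FDMn, 762 to 809 TPM in FDI, 732 to 803 TPM in FD and 1082 to 1126 TPM in Mock. Of these 7 markers 3 averaged at least 1 TPM, Spp1 made up most of the sum, and Krt7, Krt19 and Epcam were under 1 TPM in every group mean. In bulk libraries fewer cells of a type and less RNA per cell cannot be told apart.

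Most cytosolic synthetase transcripts were lower after forskolin and dexamethasone than in Mock. In FD, 16 of the 20 cytosolic genes were lower and 1 was higher, where 29.9% of all genes tested were lower and 11.2% higher (limma on log2(TPM + 1), Benjamini-Hochberg adjusted p under 0.05 over 11544 genes). The median log2 change was −0.49 over the cytosolic genes, −0.20 over the mitochondrial genes and −0.15 over all genes tested. Of the 17 mitochondrial genes 4 were lower and 0 higher. Since TPM is a share of the library, the median over all genes shifts with the composition: under median-of-ratios scaling it was −0.01, with 17.8% of all genes higher and 17.2% lower. On that scale 12 cytosolic genes were lower and 1 higher with a median of −0.32, and 1 mitochondrial gene was lower with a median of −0.04. Without FD replicate 3 the counts were 17 cytosolic and 3 mitochondrial genes, and with that replicate alone 13 and 3. The share of lower cytosolic genes exceeded the background on both scales. Of the mitochondrial genes 4 of 17 were lower, against 29.9% of all genes, on the TPM scale and 1 of 17, against 17.2%, after rescaling. These genes are few and their SE is larger, as described further below, so the counts do not set the class apart from all genes. All 3 cholangiocyte markers that were tested were also lower in FD than in Mock, Cldn4 at −1.51 ± 0.10, adjusted p = 2.1e-07, Sox9 at −0.99 ± 0.11, adjusted p = 1.81e-05 and Spp1 at −0.38 ± 0.059, adjusted p = 0.000258 (limma, log2 changes). The hepatocyte markers moved the other way in this comparison. Of 9 tested, all with positive changes, 4 passed (7 after median-of-ratios scaling). The smallest adjusted p were those of Hnf4a (1.96 ± 0.044, adjusted p = 1.02e-11), Ahsg (0.90 ± 0.067, adjusted p = 5.45e-07) and Ttr (0.49 ± 0.056, adjusted p = 2.28e-05), by limma. The part of either set of markers in the synthetase results was not tested.

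The cytosolic genes with the smallest adjusted p in FD against Mock were Yars, Rars, Aars and Tars, which charge tyrosine, arginine, alanine and threonine tRNAs. Yars had 40.5, 34.8 and 34.8 TPM in FDMn, 50.8, 50.5 and 54.4 TPM in FDI, 28.4, 29.1 and 28.3 TPM in FD, and 51.1, 47.6 and 47.4 TPM in Mock. Rars had 131, 133 and 124 TPM in FDMn, 168, 156 and 166 TPM in FDI, 92.1, 94.0 and 101 TPM in FD, and 145, 165 and 144 TPM in Mock. In both genes every FD library lay below every library of the other 3 groups. Aars had 121, 114 and 117 TPM in FDMn, 138, 134 and 135 TPM in FDI, 89.2, 84.7 and 91.7 TPM in FD, and 126, 126 and 119.7 TPM in Mock. Tars had 129, 122 and 126 TPM in FDMn, 147, 159.8 and 153 TPM in FDI, 103, 108 and 99.7 TPM in FD, and 169, 148 and 143 TPM in Mock. Aars and Tars showed the same separation of FD from the other groups. The log2 change in FD was −0.75 ± 0.071 (SE, adjusted p = 4.85e-06) for Yars, −0.65 ± 0.066 (SE, adjusted p = 8.07e-06) for Rars, −0.48 ± 0.051 (SE, adjusted p = 1.12e-05) for Aars and −0.56 ± 0.066 (SE, adjusted p = 3.08e-05) for Tars, by limma. About 14.4% of the 31-base words in Aars transcripts of the GENCODE M21 annotation also occur in transcripts of other genes, most of them Exosc6, which is listed at 0 in all 12 libraries. For Iars the share was 14.7%, for Fars2 9.83%, for Cars2 8.53% and for Farsb 8.46%, so the values of these genes carry some uncertainty. The main partner of Fars2 was Nrn1, with 63.4 to 116 TPM, and that of Cars2 was Naxd, with 51.7 to 63.0 TPM, both more abundant than the synthetase gene. The main partners of Iars and Farsb did not exceed 0.0897 TPM.

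The other lower cytosolic genes in FD were Wars (tryptophan, −0.68), Vars (valine, −0.66), Cars (cysteine, −0.62), Sars (serine, −0.56), Lars (leucine, −0.53), Iars (isoleucine, −0.52), Mars (methionine, −0.49), Nars (−0.45), Farsb (the beta subunit of the phenylalanine enzyme, −0.38), Dars (aspartate, −0.25), Kars (−0.24) and Gars (−0.15), all as log2 changes. The small Gars change depended on the scaling, and under median-of-ratios scaling it was 0.01 (limma adjusted p = 0.887). Its call was also lost without Mock replicate 1. The Sars mean in FD joined unlike libraries, with 293, 287 and 287 TPM in FDMn, 346, 349.7 and 318 TPM in FDI, 346, 351 and 233 TPM in FD, and 449.5, 442 and 455 TPM in Mock. Replicate 3 of FD fell below the FDMn libraries while replicates 1 and 2 of FD lay above them, and all 3 were below Mock. Farsa, Hars (histidine) and Qars did not pass, with log2 changes of −0.13, −0.14 and 0.02. The Qars estimate was imprecise, because the FD libraries had 65.6, 113 and 80.8 TPM in FD, against 88.6, 68.7 and 94.3 TPM in Mock.

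Eprs was the 1 cytosolic gene that was higher in FD than in Mock. It encodes the bifunctional enzyme that charges both glutamate and proline tRNAs. Eprs had 82.4, 86.5 and 82.4 TPM in FDMn, 122, 129 and 129 TPM in FDI, 95.7, 91.7 and 89.3 TPM in FD, and 78.3, 79.9 and 84.6 TPM in Mock. FD lay above Mock without overlap, and FDI lay above all other groups. The log2 change in FD against Mock was 0.19 ± 0.054 (SE, adjusted p = 0.0163) by limma. The call was lost under 4 of the 16 alternative settings, among them those without FD replicate 1 and without Mock replicate 1, and its adjusted p ran between 0.000263 and 0.184.

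Iars2, Aars2 and Ears2, the mitochondrial isoleucine, alanine and glutamate genes, had the smallest adjusted p among the mitochondrial genes that were lower in FD. Iars2 had 22.7, 22.4 and 24.9 TPM in FDMn, 21.8, 24.4 and 24.5 TPM in FDI, 24.8, 27.0 and 26.1 TPM in FD, and 35.3, 30.5 and 34.1 TPM in Mock. Aars2 had 5.29, 5.43 and 5.50 TPM in FDMn, 7.07, 6.37 and 7.04 TPM in FDI, 6.46, 6.78 and 6.80 TPM in FD, and 10.7, 8.996 and 8.42 TPM in Mock. Ears2 had 4.19, 6.55 and 5.95 TPM in FDMn, 6.81, 5.94 and 6.62 TPM in FDI, 7.08, 7.40 and 6.23 TPM in FD, and 9.58, 11.1 and 9.45 TPM in Mock. In each of these genes all 9 libraries treated with forskolin and dexamethasone lay below the 3 Mock libraries. The log2 changes were −0.35 ± 0.079 (SE, adjusted p = 0.00414) for Iars2, −0.43 ± 0.099 (SE, adjusted p = 0.00435) for Aars2 and −0.48 ± 0.14 (SE, adjusted p = 0.0142) for Ears2, by limma. The calls of Iars2 and Ears2 were lost under median-of-ratios scaling, and that of Ears2 also without FD replicate 3 or without Mock replicate 2. Wars2 (tryptophan) was the other lower gene, at −0.53 ± 0.17 (SE, adjusted p = 0.0251), and its call was lost under 9 of 15 alternative settings, 4 of which left out 1 library (FD replicate 1 or 2, Mock replicate 1 or 3). Iars2 shares 23.6% of its 31-base words with other genes, most with Rab3gap2, which had 13.01 to 19.06 TPM, so its values are uncertain.

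**Figure D2:**
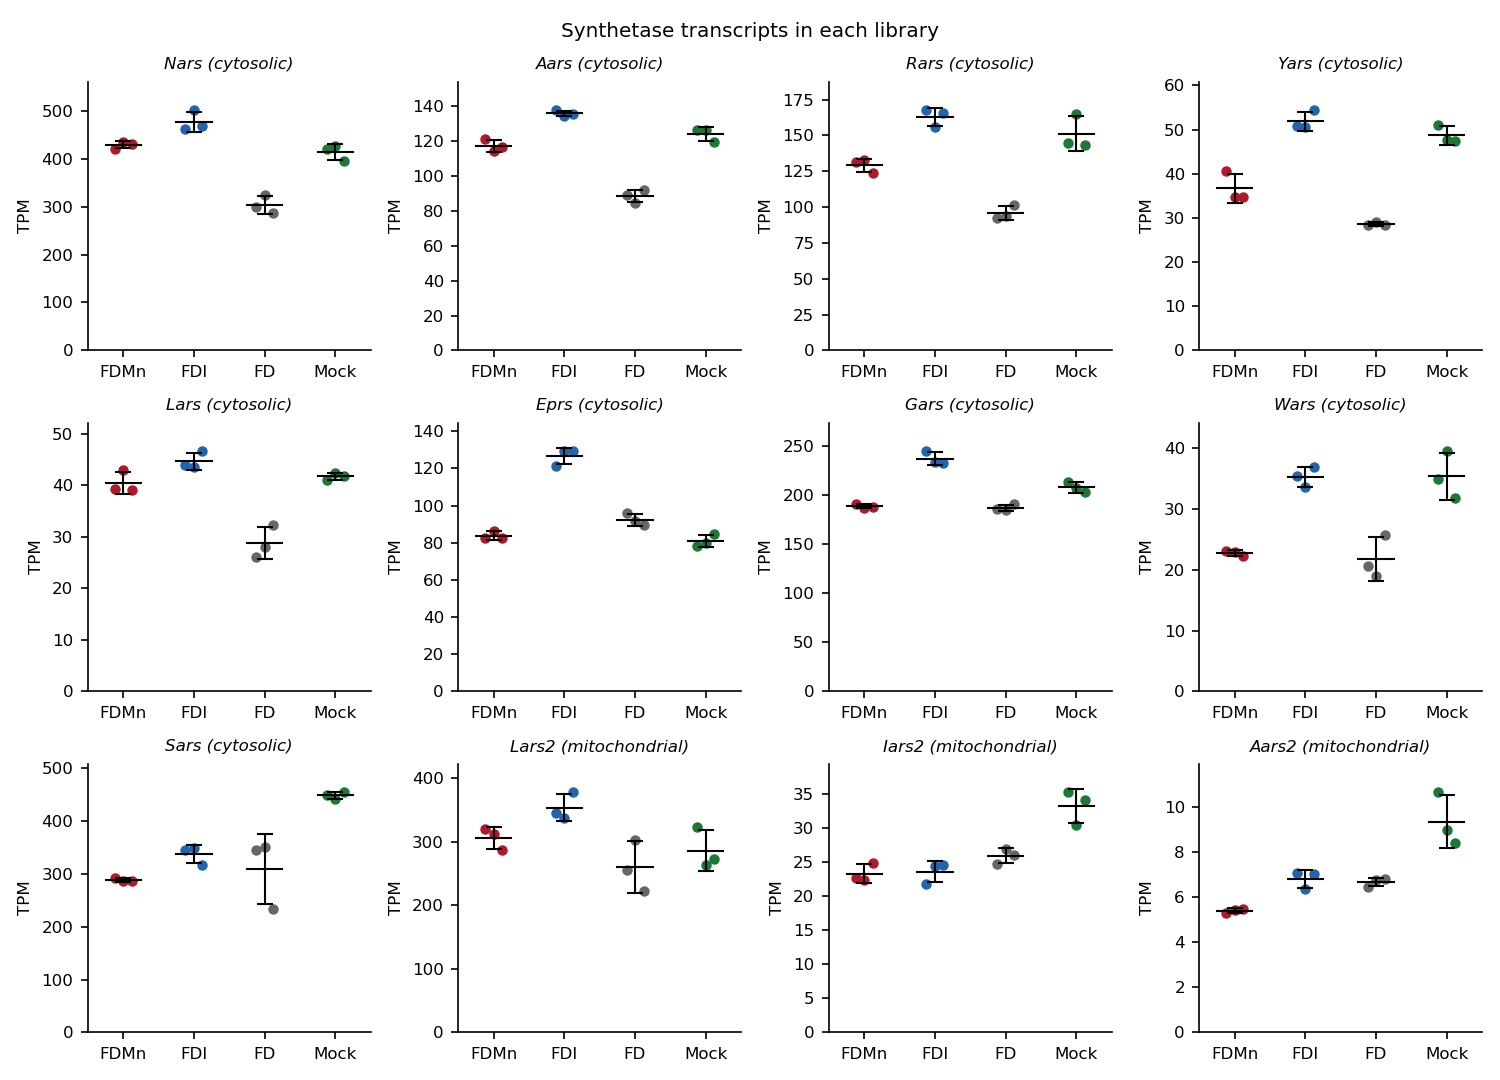
TPM of 12 synthetase genes in each library (points), with group mean and SD (lines), for FDMn, FDI, FD and Mock; each vertical axis starts at 0. Nars, Aars, Rars, Yars and Lars are lowest in FD and intermediate or high in FDMn and FDI, Eprs is highest in FDI, and Iars2 and Aars2 are highest in Mock.

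Manganese given before forskolin and dexamethasone was associated with higher levels of 8 of the 20 cytosolic genes in FDMn than in FD, and with 0 lower, where 7.22% of all genes tested were higher and 7.9% lower. Of the 17 mitochondrial genes 0 passed in either direction by limma. Without adjustment 3 of them had p under 0.05, and without FD replicate 2 the count was 2 (Fars2 and Lars2). The median log2 change was 0.15 over the cytosolic genes, 0.04 over the mitochondrial genes and 0.00 over all genes. Single mitochondrial estimates ran from −0.45 for Fars2 to 0.33 for Wars2. The 8 genes were Nars, Aars, Rars, Lars, Yars, Tars, Vars and Cars, each of which was also lower in FD than in Mock. Both comparisons use the FD libraries, so a low FD value enters both and the coincidence is not independent evidence. Of the cholangiocyte markers, Spp1 (1.06 ± 0.059, adjusted p = 1.24e-06) and Sox9 (0.54 ± 0.11, adjusted p = 0.00594) were also higher in FDMn than in FD by limma, while the Cldn4 change was −0.24 (adjusted p = 0.13) and did not pass. Their part in these results was not tested.

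Nars, given above, had the smallest adjusted p, with a log2 change of 0.50 ± 0.056 (SE, adjusted p = 0.000134) by limma (1.41-fold of the group means). All 3 FDMn libraries exceeded all 3 FD libraries and overlapped Mock. Aars followed at 0.40 ± 0.051 (SE, adjusted p = 0.000314) and Rars at 0.43 ± 0.066 (SE, adjusted p = 0.00108), each with all FDMn libraries above all FD libraries. Lars had 39.3, 42.9 and 39.0 TPM in FDMn, 44.0, 43.5 and 46.6 TPM in FDI, 26.1, 28.0 and 32.3 TPM in FD, and 41.1, 42.4 and 41.9 TPM in Mock, with FDMn above FD without overlap. Its log2 change was 0.48 ± 0.078 (SE, adjusted p = 0.0016) by limma. Vars rose by 0.46 (adjusted p = 0.0146), Yars by 0.35 (0.00657), Cars by 0.34 (0.0149) and Tars by 0.28 (0.0138) on the log2 scale, by limma. The Nars and Aars calls held under all 16 alternatives. The Cars call was lost without FDMn replicate 1 or FD replicate 1, the Tars call without FDMn replicate 1 and the Vars call without FDMn replicate 3 or FD replicate 1. With FD represented by replicate 3 alone 5 genes passed: Nars, Aars, Cars, Vars and, in addition, Sars, which was then higher in FDMn. Without FD replicate 3 the count was 9, because Sars was then lower in FDMn. The mitochondrial count was 1 with FD replicate 3 alone and 0 without it.

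The other 12 cytosolic genes did not pass in FDMn against FD, and their precision allows different statements. For Gars the 95% interval of the log2 change was −0.08 to 0.11, for Kars −0.09 to 0.14 and for Hars −0.22 to 0.05, so a change as large as the 0.50 of Nars lies outside them. For Qars the interval was −0.56 to 0.15 and for Sars −0.34 to 0.19. For Wars it was −0.16 to 0.31, and Wars had 23.2, 22.9 and 22.3 TPM in FDMn, against 20.7, 18.9 and 25.8 TPM in FD. The Eprs change was −0.14 ± 0.054 (SE, adjusted p = 0.113), with all FDMn libraries below all FD libraries.

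More cytosolic genes rose in FDI, where insulin preceded forskolin and dexamethasone. In FDI, 14 of the 20 cytosolic genes were higher than in FD and 0 lower, where 10.2% of all genes tested were higher and 4.35% lower. The median log2 change was 0.39 over the cytosolic genes and 0.04 over all genes (0.34 over the cytosolic genes under median-of-ratios scaling, with 13 higher, against 7.34% of all genes higher and 6.03% lower). Of the mitochondrial genes 1 of 17 was higher and 0 lower, with a median of 0.10. Of the cholangiocyte markers, Sox9 (1.20 ± 0.11, adjusted p = 2.17e-05) and Cldn4 (0.76 ± 0.10, adjusted p = 0.000392) were also higher in FDI than in FD by limma, while Spp1, which makes up most of their sum, was at −0.11 (adjusted p = 0.272) and did not pass. Their part in these results was not tested. Aars, Yars, Nars and Rars had the smallest adjusted p, and in each of them all FDI libraries exceeded all FD libraries, as their values above show. Their log2 changes were 0.61 ± 0.051 (SE, adjusted p = 1.09e-05) for Aars, 0.84 ± 0.071 (SE, adjusted p = 1.35e-05) for Yars, 0.65 ± 0.056 (SE, adjusted p = 1.38e-05) for Nars and 0.76 ± 0.066 (SE, adjusted p = 1.44e-05) for Rars, by limma. In group means this was 1.81-fold for Yars and 1.70-fold for Rars. The other genes that rose were Cars (0.71), Wars (0.68), Lars (0.62), Tars (0.56), Eprs (0.45), Vars (0.42), Mars (0.36), Gars (0.34), Iars (0.33) and Hars (0.33), in log2 units. Vars lost its call under 9 of 16 alternatives, among them each left-out library of FDI and of FD except FD replicate 2, and Iars lost its call without FDI replicate 3. Mars has 68 exonic bases that overlap Ddit3 on the opposite strand, 2.0% of its exonic bases, and the use of strand in the counting is not given in the sources used here.

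Of the 6 cytosolic genes that did not pass in FDI against FD, 5 had positive estimates: Farsa at 0.23, Farsb at 0.22, Sars at 0.15, Kars at 0.11 and Dars at 0.08. The intervals of Kars (−0.01 to 0.23) and Dars (−0.06 to 0.21) lie below the cytosolic median of 0.39. Qars was the exception in sign. It had 65.7, 62.5 and 61.4 TPM in FDI, against 65.6, 113 and 80.8 TPM in FD, and its log2 change was −0.41 ± 0.16 (SE, adjusted p = 0.117) by limma, so it did not pass, although it did without FD replicate 1. Without FD replicate 3 the counts were 13 cytosolic genes and 1 mitochondrial gene, and with that replicate alone 12 and 1. In the mitochondrial class Lars2 rose. Lars2 had 319.9, 313 and 287 TPM in FDMn, 346, 339 and 378 TPM in FDI, 255, 304 and 222 TPM in FD, and 323, 263 and 273 TPM in Mock, and all FDI libraries exceeded all FD libraries. Its log2 change was 0.45 ± 0.11 (SE, adjusted p = 0.0144) by limma, and the call was lost without FDI replicate 3.

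**Figure D3:**
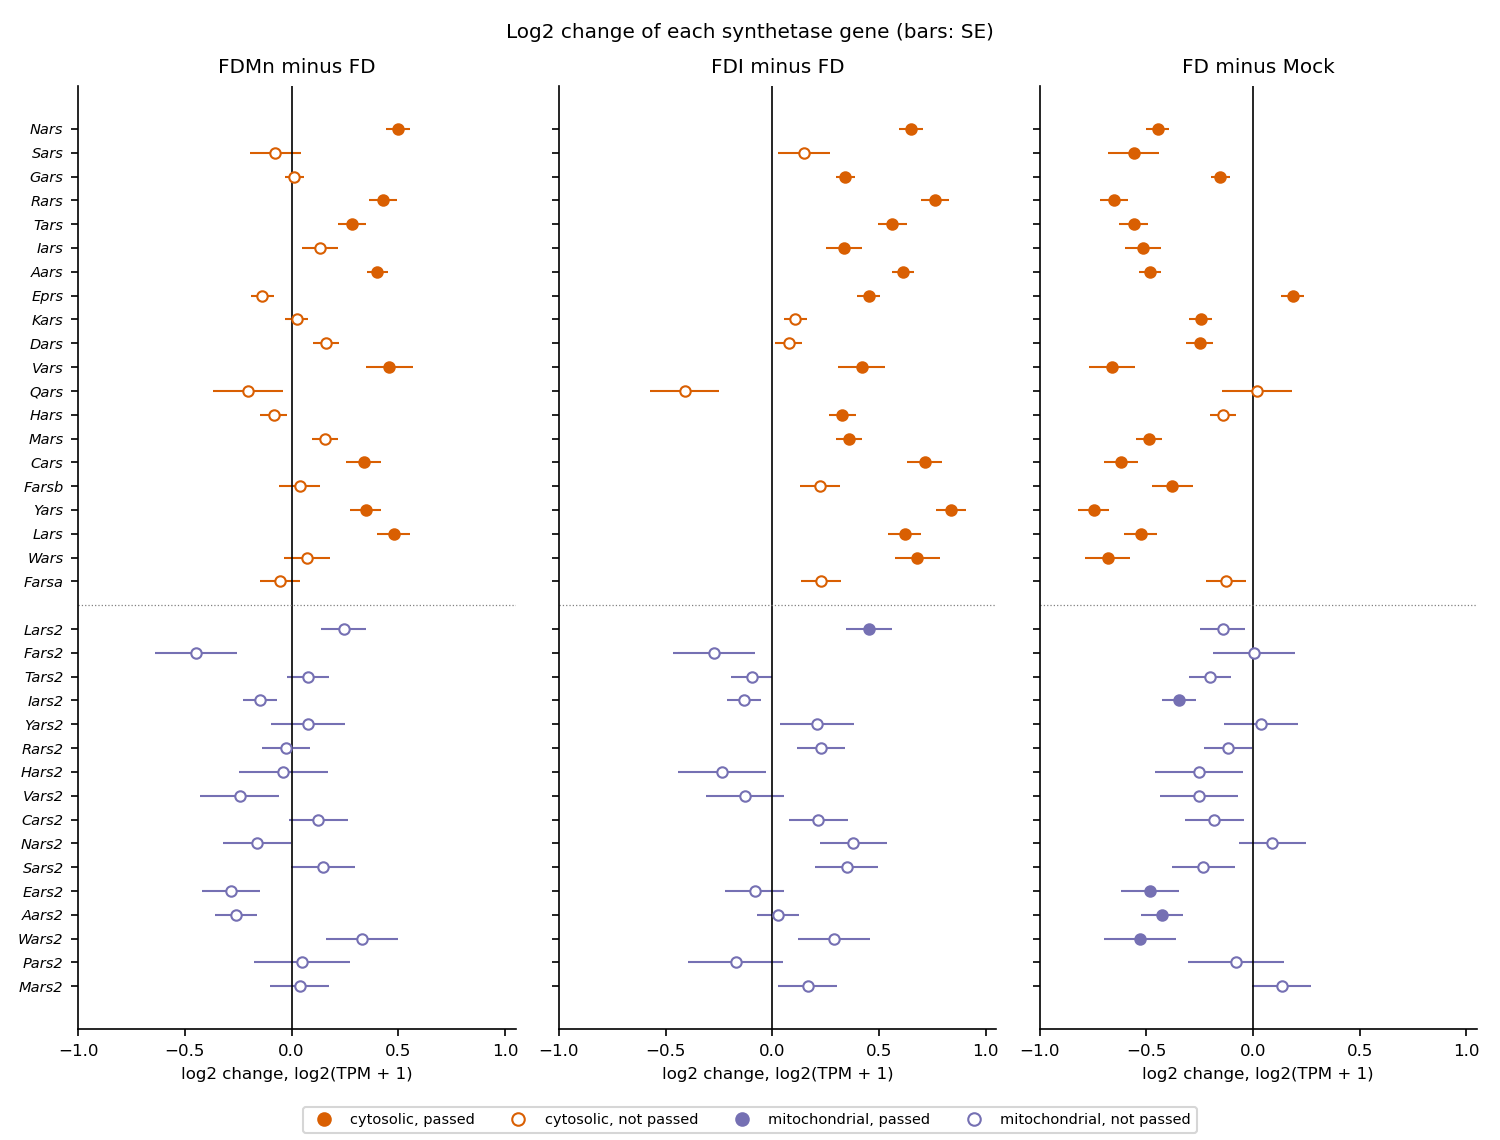
Log2 change on the log2(TPM + 1) scale with its SE for the synthetase genes named here, in FDMn minus FD, FDI minus FD and FD minus Mock; filled points passed an adjusted p of 0.05 by limma. Cytosolic genes lie mostly left of 0 in FD minus Mock (16 lower) and right of 0 in FDI minus FD (14 higher), and most mitochondrial points are open.

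Set directly against each other, FDMn had lower levels than FDI in 10 of the 20 cytosolic genes and higher in 0, where 11.9% of all genes tested were lower and 5.68% higher. The median log2 difference was −0.22 over the cytosolic genes, −0.13 over the mitochondrial genes and −0.04 over all genes. The cholangiocyte markers Cldn4 (−1.001 ± 0.10, adjusted p = 4.88e-05) and Sox9 (−0.66 ± 0.11, adjusted p = 0.00162) were also lower in FDMn than in FDI by limma and Spp1 (1.16 ± 0.059, adjusted p = 3.44e-07) was higher, and their part was not tested. Under median-of-ratios scaling 9 cytosolic genes were lower, against 8.71% of all genes lower and 7.1% higher. Eprs, Gars, Yars and Hars had the smallest adjusted p. Gars had 191, 187 and 188 TPM in FDMn, 245, 234 and 233 TPM in FDI, 186, 184 and 191 TPM in FD, and 214, 207 and 203 TPM in Mock. FDI stood above all the other groups, and FDMn overlapped FD. Hars had 52.1, 49.1 and 50.6 TPM in FDMn, 70.8, 63.2 and 69.1 TPM in FDI, 50.6, 54.7 and 55.8 TPM in FD, and 60.2, 59.0 and 58.6 TPM in Mock, with FDI again above FDMn without overlap. The log2 difference of FDMn minus FDI was −0.59 ± 0.054 (SE, adjusted p = 2.67e-05) for Eprs, −0.33 ± 0.044 (SE, adjusted p = 0.000363) for Gars, −0.49 ± 0.071 (SE, adjusted p = 0.00061) for Yars and −0.41 ± 0.062 (SE, adjusted p = 0.000779) for Hars, by limma. Wars (−0.61), Cars (−0.38), Rars (−0.33), Tars (−0.28), Aars (−0.21) and Mars (−0.20) were also lower in FDMn, and the Mars call was lost under 10 of 15 alternatives, including each left-out library of FDMn and FDI. The Aars call was lost without FDMn replicate 2 and the Tars call without FDI replicate 2.

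For 3 genes that were higher than in FD under both additions, the direct difference between FDMn and FDI did not pass. The 95% interval of FDMn minus FDI was −0.27 to −0.03 for Nars, −0.31 to 0.03 for Lars and −0.20 to 0.28 for Vars on the log2 scale. The other 5 of the 8 genes (Aars, Rars, Yars, Tars and Cars) were higher in FDI than in FDMn by the values above. Eprs, Gars, Hars, Wars and Mars were higher in FDI than in both FD and FDMn. Nars2, the mitochondrial asparagine gene, was the 1 mitochondrial gene lower in FDMn than in FDI. Nars2 had 8.57, 6.57 and 7.88 TPM in FDMn, 14.5, 9.64 and 11.04 TPM in FDI, 7.86, 10.3 and 8.002 TPM in FD, and 7.07, 7.90 and 9.36 TPM in Mock. FDI lay above FDMn without overlap and its log2 difference was −0.54 ± 0.16 (SE, adjusted p = 0.0339) by limma, a call lost under 8 of 15 alternatives, including those without FDMn replicate 2 or 3 and without FDI replicate 1 or 3.

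Against Mock, 14 of the 20 cytosolic synthetase genes did not pass in FDI. The log2 changes of the 20 ran from −0.41 to 0.64, with 11 positive and 9 negative. Without adjustment 10 of them had p under 0.05 by limma, so a gene that did not pass is not shown to be at the Mock level. In FDI 4 of 20 were higher (Eprs, Gars, Hars and Nars) and 2 lower (Dars and Sars), where 12.9% of all genes tested were higher and 25.4% lower, and the cytosolic median was 0.05. Without Mock replicate 3 the count of 6 became 2, with the Hars, Nars, Dars and Sars calls lost. The Hars call was lost in 5 and the Dars call in 5 of the 6 fits that left out 1 FDI or Mock library, the Nars call also without FDI replicate 2 and the Sars call also without FDI replicate 3, while Eprs and Gars kept theirs in all 6. Eprs stood out at 0.64 ± 0.054 (SE, adjusted p = 2.15e-06) by limma. In FDMn 12 of 20 were lower than in Mock and 0 higher, where 30.6% of all genes tested were lower and 12% higher, and the median was −0.22 against −0.15 over all genes. The lower genes with the widest changes were Sars (−0.63), Wars (−0.61), Yars (−0.40) and Iars (−0.38), in log2 units, and the others were Mars, Farsb, Cars, Tars, Hars, Kars, Rars and Gars. Under median-of-ratios scaling the FDMn count was 4 lower and 2 higher, with a median of −0.06, against 17.5% of all genes lower and 18.4% higher. The FDI count was then 7 higher and 0 lower, with a median of 0.16, against 18.7% of all genes higher and 17.3% lower. The mitochondrial genes were lower than Mock in 4 of 17 cases in FDMn (Aars2, Ears2, Iars2 and Vars2) and in 4 of 17 in FDI (Aars2, Ears2, Iars2 and Tars2). Lars2 and Nars2 were higher in FDI than in Mock, with log2 changes of 0.31 ± 0.11 (SE, adjusted p = 0.0373) and 0.47 ± 0.16 (SE, adjusted p = 0.0334) by limma. The Lars2 call was lost without any 1 FDI library and without Mock replicate 2 or 3, and the Nars2 call without FDI replicate 1 or 3 and without Mock replicate 1 or 2. Without FDI replicate 1 or without FDI replicate 3 the mitochondrial count of 6 became 3. All comparisons with Mock share the Mock libraries. Over the 6 comparisons, 9 of the 17 mitochondrial genes passed in none, among them Cars2, Fars2, Hars2, Mars2, Pars2, Rars2, Sars2 and Yars2, which charge cysteine, phenylalanine, histidine, methionine, proline, arginine, serine and tyrosine tRNAs. Of the 20 cytosolic genes this held for 2, Farsa and Qars.

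For 13 amino acids the changes of the separate cytosolic and mitochondrial genes were set side by side. In FDI against FD the cytosolic change was the more positive in 12 of 13 pairs, with a median difference of 0.50 log2 units, and Sars/Sars2 was the exception. In 7 of the 13 the cytosolic-to-mitochondrial ratio was higher in every FDI library than in every FD library. In FDMn against FD it was the more positive in 10 pairs, without overlap in 5: alanine, asparagine, arginine, isoleucine and valine. The valine pair differed most, with Vars at 0.46 and Vars2 at −0.24. In FD against Mock the cytosolic change was the more negative in 12 of 13 pairs, without overlap in 5 (arginine, asparagine, methionine, threonine and valine). Tyrosine gave the widest difference there, with Yars at −0.75 and Yars2 at 0.04. Lack of overlap between groups of 3 libraries is common. Of the 11544 single genes tested, 2257 were higher in FDI than in FD without overlap and 1914 higher in FDMn than in FD. In FD against Mock 4001 were lower without overlap. The share over ratios of other gene pairs was not computed, so the pair counts have no matching background. The difference between the classes was not tested, since genes of a class are not replicates.

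**Figure D4:**
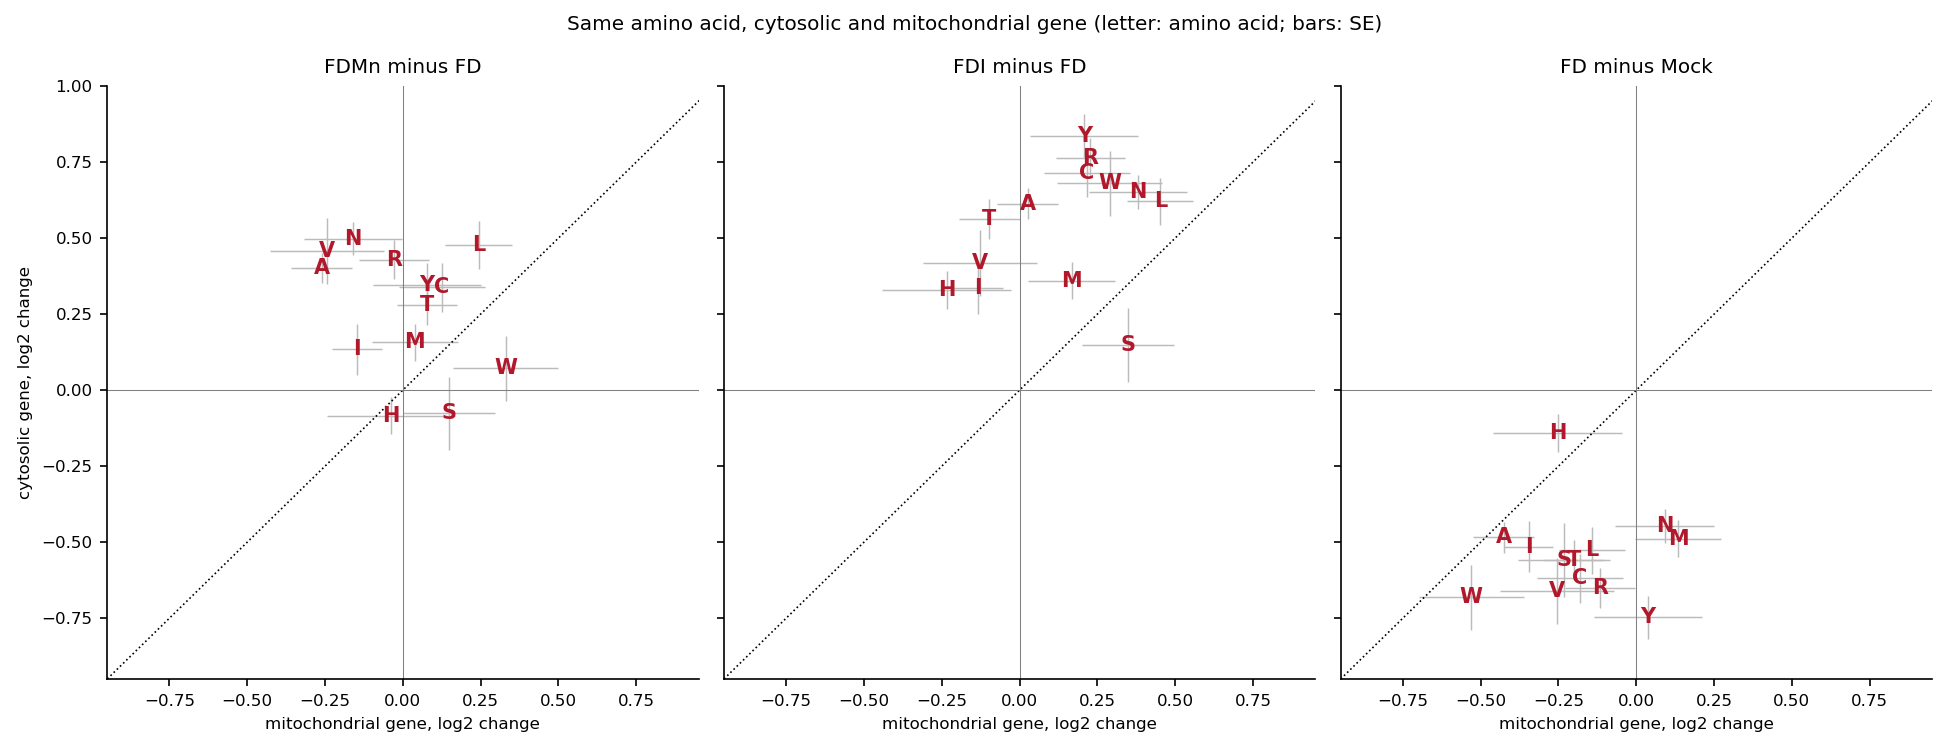
Log2 change of the cytosolic gene (vertical) against that of the mitochondrial gene (horizontal) for 13 amino acids, marked by their 1-letter codes, with SE bars; the dotted line marks equal change. In FDI minus FD 12 of 13 letters lie above the line, in FDMn minus FD 10, and in FD minus Mock 12 lie below it.

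The precision of the 2 classes differed. The SE of a log2 change ran from 0.0442 to 0.163 over the cytosolic genes (median 0.0684) and from 0.0794 to 0.224 over the mitochondrial genes (median 0.148). The counts of calls therefore do not compare the classes on equal terms. In FDI against FD the 95% interval of 8 mitochondrial genes lay below the cytosolic median of 0.39 and that of 9 held it. In FD against Mock 8 intervals lay above the cytosolic median of −0.49 and 9 held it. In FDMn against FD, where the cytosolic median was only 0.15, 4 lay below and 13 held it. Intervals of the 20 cytosolic genes also missed this median of their own class. In FDI against FD 3 of them lay below it and 8 above. The counts were 2 below and 7 above in FD against Mock, and 4 below and 7 above in FDMn against FD. A missed median therefore does not by itself set a mitochondrial gene apart from the cytosolic ones.

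The changes were not limited to members of the multi-synthetase complex. Of its 8 members (Rars, Eprs, Iars, Lars, Mars, Kars, Qars and Dars), 6 were lower in FD than in Mock, 2 were higher in FDMn than in FD and 5 were higher in FDI than in FD. Of the 12 cytosolic genes outside it the counts were 10, 6 and 9. The shares of all genes tested were 29.9%, 7.22% and 10.2%. Under median-of-ratios scaling the counts in FD against Mock were 4 of 8 inside the complex and 8 of 12 outside it, against 17.2% of all genes. The scaffold genes Aimp1 and Aimp2 passed in none of these comparisons, and Eef1e1 was higher in FDI than in FD at 0.57 ± 0.17, adjusted p = 0.0424 by limma, a call lost under median-of-ratios scaling. By structural class, 11 of 18 class I and 9 of 18 class II genes, both compartments included, were lower in FD, against 29.9% of all genes. Under median-of-ratios scaling these counts were 8 and 5, against 17.2%. In FDI 9 of 18 class I and 5 of 18 class II genes were higher than in FD, against 10.2% of all genes, and 8 and 5 after rescaling, against 7.34%. Eprs, which joins an enzyme of each class, was left out of these counts. Of the cytosolic genes whose promoter window held TGATGNAA, 5 of 5 were higher in FDI than in FD (median 0.56) and 3 of 5 in FDMn than in FD (median 0.28). Of the 8 with a window without it, 2 were higher in FDI (median 0.19) and 0 in FDMn (median −0.02). The 7 cytosolic genes with no matched window lie outside this comparison, and of these 7 were higher in FDI and 5 in FDMn than in FD. The part of the motif in these changes was not tested.

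Other genes of the ATF4 programme are described from a list of 26 genes outside the synthetases, which holds Atf4 itself and known targets. Of these, 15 were lower and 4 higher in FD than in Mock, with a median log2 change of −0.54, against 29.9% of all genes lower and 11.2% higher. Under median-of-ratios scaling 15 were lower and 7 higher with a median of −0.40, against 17.2% of all genes lower and 17.8% higher. In FDMn 18 were higher than in FD and 0 lower, with a median of 0.52, against 7.22% of all genes higher and 7.9% lower. In FDI 24 were higher than in FD and 0 lower, with a median of 1.07, against 10.2% of all genes higher and 4.35% lower. Set against FDI, FDMn was lower in 18 and higher in 0, with a median of −0.55, against 11.9% of all genes lower and 5.68% higher. These comparisons share libraries, as do those of the synthetases. The Atf4 transcript itself was at −0.08 ± 0.065, adjusted p = 0.34 by limma in FD against Mock and did not pass. Its log2 change was 0.39 ± 0.065, adjusted p = 0.0019 in FDMn against FD and 0.89 ± 0.065, adjusted p = 4.37e-06 in FDI against FD. In FDMn against FDI it was −0.50 ± 0.065, adjusted p = 0.000294, all by limma. In FD against Mock the leading genes were Psat1 (serine synthesis, −0.94 ± 0.067, adjusted p = 3.74e-07), the amino acid transporter gene Slc7a5 (−1.79 ± 0.13, adjusted p = 4.01e-07) and Aldh18a1 (proline synthesis, −1.67 ± 0.12, adjusted p = 5.02e-07), by limma. In FDMn against FD they were the stress protein gene Nupr1 (1.71 ± 0.12, adjusted p = 6.87e-06), Cth (cysteine synthesis, 0.84 ± 0.073, adjusted p = 2.21e-05) and the transporter subunit gene Slc3a2 (0.55 ± 0.053, adjusted p = 4.37e-05), by limma. In FDI against FD they were Chac1 (glutathione breakdown, 2.13 ± 0.10, adjusted p = 3.67e-07), the arginine and lysine transporter gene Slc7a1 (2.02 ± 0.12, adjusted p = 1.07e-06) and Cth (1.17 ± 0.073, adjusted p = 1.42e-06), by limma. In FDMn against FDI they were Chac1 (−1.43 ± 0.10, adjusted p = 3.85e-06), Psat1 (−0.77 ± 0.067, adjusted p = 1.63e-05) and the stress-response gene Sesn2 (−0.79 ± 0.081, adjusted p = 5.14e-05), by limma.

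Lists of genes next to the synthetases in translation had smaller shares of called genes than the cytosolic synthetases in FDMn against FD and in FDI against FD. Among all genes tested 29.9% were lower and 11.2% higher in FD than in Mock, 7.22% higher and 7.9% lower in FDMn than in FD, and 10.2% higher and 4.35% lower in FDI than in FD. Under median-of-ratios scaling 17.2% were lower and 17.8% higher in FD than in Mock. On that scale 7.34% were higher and 6.03% lower in FDI than in FD. Of 17 genes with related tasks in tRNA charging, 5 were lower and 0 higher in FD than in Mock (3 lower and 1 higher under median-of-ratios scaling), 2 were higher and 2 lower in FDMn than in FD, and 1 was higher in FDI than in FD. Xpot, which exports tRNA from the nucleus, moved as the cytosolic synthetases did: −0.70 ± 0.093, adjusted p = 8.64e-05 in FD against Mock, 0.56 ± 0.093, adjusted p = 0.00178 in FDMn against FD and 0.62 ± 0.093, adjusted p = 0.000952 in FDI against FD, by limma. Of 31 cytosolic translation factors, 12 were lower and 2 higher in FD than in Mock (4 and 2 under median-of-ratios scaling), 3 were higher and 2 lower in FDMn than in FD, and 9 were higher and 1 lower in FDI than in FD (5 and 1 under median-of-ratios scaling). Of 22 mitochondrial translation factors, 7 were lower and 0 higher in FD than in Mock (2 and 0 under median-of-ratios scaling), 1 was higher and 2 lower in FDMn than in FD, and 1 was higher and 0 lower in FDI than in FD. Among 6 genes for eIF2 kinases and their regulators, 4 did not pass when FD was set against Mock. Impact rose there, at 1.08 ± 0.18, adjusted p = 0.000506, and Eif2ak3 fell, at −0.65 ± 0.14, adjusted p = 0.00268, by limma. After median-of-ratios scaling 2 of the 6 rose and 1 fell. Eif2ak1, the haem-regulated kinase, was lower than in FD at −0.33 ± 0.071, adjusted p = 0.00941 in FDMn, by limma. In FDI it was lower than in FD at −0.49 ± 0.071, adjusted p = 0.000784, by limma. The part of these genes in the synthetase results was not tested. Eif2ak4, which encodes GCN2, passed in none of these comparisons. On the TPM scale the shares of lower charging relatives and mitochondrial factors in FD were thus close to that of all genes.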

How the data were processed

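Poly-A RNA of primary mouse hepatocytes was sequenced in 12 libraries, 3 in each of 4 groups, with group and replicate taken from the labels. The authors deposited one table of TPM values for 36144 genes. The values rest on kallisto 0.44.0 and build GRCm38.p6, per the submitters' processing notes, which also list DESeq2 with no role. No source used here states the annotation release or the use of strand. TPM keeps no read number, so the depth per library is unknown and no counting interval is given. A TPM is a share, so a rise of abundant transcripts lowers all others.

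The deposited TPM values were converted to log2(TPM + 1), a scale that understates changes of low genes. Genes with at least 1 TPM in at least 3 of 12 libraries (11544) were fitted with limma 3.58.1 in R 4.3.3, with 1 term per group over all 12 libraries and an intensity trend. All tests were two-sided and called at 0.05 after Benjamini-Hochberg adjustment over these genes. The procedure was tested on simulated data. Words of 31 bases shared between genes were counted in GENCODE M21 transcripts, and promoters came from a RefSeq table and were searched for motifs on both strands.

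Members were found by symbol; results for 1 mitochondrial gene are not reported here by name, and it is counted in the class totals but not in the pairs of genes. The members and lists (synthetase complex scaffold, tRNA-charging relatives, Atf4 and ATF4 targets, eIF2 kinases, cytosolic and mitochondrial translation factors, cell type markers) were chosen with earlier results of these data known. Values in every library are given for up to 4 cytosolic and 3 mitochondrial genes with the smallest adjusted p per direction and comparison, and for the highest and lowest gene of each class. Of each list up to 3 genes with the smallest adjusted p per comparison could be named. Sars, Qars, Wars, Atf4 and Eif2ak4 were given values or named for their pattern after these were seen. Alternatives changed the pseudocount, filter, scaling, trend, samples fitted, replicate block or left out 1 library.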

Additional observations from a re-analysis of the deposited data

How the results depend on the processing

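The counts of called cytosolic genes in FD against Mock, FDI against FD and FDMn against FDI stayed within 1.5 times the reported count under every alternative run. In FD against Mock the count of mitochondrial genes was 1 under median-of-ratios scaling and 1 under quantile normalization, against 4 reported. With FD represented by replicate 3 alone, which is then assumed to vary like the other groups, FDMn against FD had 5 cytosolic and 1 mitochondrial calls, and the Sars change was 0.31 in the opposite direction (limma adjusted p = 0.0246). In FDMn against FDI the 1 mitochondrial call became 0 without the filter, 0 under median-of-ratios scaling, 0 under quantile normalization and 2 without the trend. In FDMn against Mock the cytosolic count was 6 under median-of-ratios scaling and 6 under quantile normalization, against 12. In FDI against Mock the mitochondrial count was 3 under quantile normalization, against 6. Gars reversed under median-of-ratios scaling, to 0.01 in FD against Mock and 0.021 in FDMn against Mock. The cause was not tested in any of these cases. At a filter of 5 TPM, 34 of the 37 genes were tested, without Mars2, Pars2 and Wars2.

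Leaving out 1 library at a time gave cytosolic counts of 15 to 17 in FD against Mock, 6 to 9 in FDMn against FD, 12 to 14 in FDI against FD, 8 to 9 in FDMn against FDI, 9 to 12 in FDMn against Mock and 2 to 7 in FDI against Mock. Mitochondrial counts were 3 to 4, 0 to 2, 0 to 1, 0 to 1, 3 to 4 and 3 to 6 in the same order. The low cytosolic value of 2 came without Mock replicate 3, and the mitochondrial value of 3 in FDI against Mock came without FDI replicate 1 or FDI replicate 3.

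Deviations from the group mean correlated at −0.10 to 0.07 between same-numbered replicates of different groups. In FDI against Mock 6 of 6 samples correlated best with their own number, in FDMn against FDI 5 and in FDI against FD 4. The number was 2 in FDMn against Mock, 1 in FD against Mock and 0 in FDMn against FD. With 3 libraries per group such weak correlations cannot decide whether the numbers pair the samples. With the replicate block the cytosolic counts were 17, 8, 14, 11, 12 and 6 in the order above, and the mitochondrial counts 5, 0, 1, 0, 3 and 5. Over all 222 gene results the block lost 3 calls and added 2. Precision limits the low mitochondrial genes most, and the unknown depth gives no detection limit.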
